A study of Mus musculus with 6 samples.

Results

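Esco1, its relative Esco2 and 8 genes of the cohesin complex and its loading and holding factors were measured in mouse leukaemic B cells with and without gamma-catenin. The 10 genes were taken from a named list (Esco1, Esco2, Smc1a, Smc3, Rad21, Stag1, Stag2, Nipbl, Pds5a and Pds5b), and all 10 were found among the 19938 genes that had a probe set with exactly 1 gene symbol. Where a gene had several such probe sets, the one with the highest mean was used. Esco1 was taken up because it was already known to be higher in the knockout cells, so its difference between genotypes is given below as a description with no test. The other 9 genes stand beside it as members of the same machinery.

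The Jup knockout (KO) group came from Jup-/- fetal liver cells and the wild-type (WT) group from Jup+/+ fetal liver cells, both C57BL/6 and CD45.2+, which had first repopulated CD45.1+ mice. Jup encodes gamma-catenin, also called plakoglobin, a component of cell junctions and a relative of beta-catenin. Marrow of both kinds of chimera was transduced with a retrovirus that carries BCR-ABL1, the kinase made by the Philadelphia chromosome, and green fluorescent protein, so every sample, the WT ones included, is a leukaemia model driven from a retrovirus. At day 21 after transplantation into irradiated recipients, fluorescent B220+ BP-1+ donor B cells were sorted from the bone marrow. The labels call the 3 KO and the 3 WT samples biological replicates, and each was run on 1 array. The sources used here state neither the age of the animals nor whether cells of several animals were pooled.

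Cohesin is a ring of Smc1a, Smc3 and Rad21, to which a Stag subunit binds, and it holds sister chromatids together and folds chromosomes into loops. Nipbl loads the ring onto DNA, and Pds5a and Pds5b bind it and act in both its release and its stabilisation. Esco1 and Esco2 are acetyltransferases that modify Smc3 and thereby protect the ring from release. In human and mouse cells Esco2 acts mainly during DNA replication, whereas Esco1 is present throughout the cell cycle.

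The values are log2 intensities as deposited, and their precision is limited by the number of arrays. Array medians lay between 7.53 and 7.61. Jup itself averaged 7.13 ± 0.13 in KO arrays and 8.06 ± 0.44 in WT arrays (SD, n = 3 each), without overlap. The log2 difference of Jup was -0.93 (SE 0.20, limma adjusted p = 0.171), short of the threshold used below. The sources used here do not say whether its probe set lies in the deleted part. The B cell label fitted the defining transcripts, since Cd79a, Cd79b, Ebf1 and Igll1 lay between 13.14 and 14.02 in all 6 arrays. The arrays differed in donor sex as read from Xist, which was at 6.20 in WT replicate 2 and between 13.03 and 13.38 in the other arrays. Smc1a, Stag2 and the cohesin regulator Hdac8 lie on the X chromosome.

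Esco1 was higher in every KO array than in any WT array. On probe set 10407040 it measured 9.70, 9.90 and 9.94 in KO replicates 1, 2 and 3, against 9.08, 8.95 and 9.02 in WT replicates 1, 2 and 3. The gap between the lowest KO array and the highest WT array was wider than the whole spread within either genotype. The KO mean was 9.84 ± 0.13 and the WT mean 9.02 ± 0.07 (SD, n = 3 each), a log2 difference of 0.83 (SE 0.09) or 1.78-fold. Among the 21789 probe sets this was the 93rd largest positive difference.

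Esco1 has another probe set with a single symbol on the array, and that one gave a smaller difference in the same direction. Probe set 10457465 measured 9.48, 9.69 and 9.59 in KO replicates 1, 2 and 3, against 9.34, 9.10 and 8.999 in WT replicates 1, 2 and 3. The groups again did not overlap, but WT replicate 1 came close to KO replicate 1. The KO mean was 9.59 ± 0.11 and the WT mean 9.15 ± 0.18 (SD, n = 3 each), a log2 difference of 0.44 (SE 0.11) or 1.35-fold. The sources used here do not say which exons or transcript variants of Esco1 each probe set reads. With both probe sets averaged, the difference was 0.63. The size of the Esco1 difference therefore depends on the probe set, while its sign was positive on both.

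**Figure D1:**
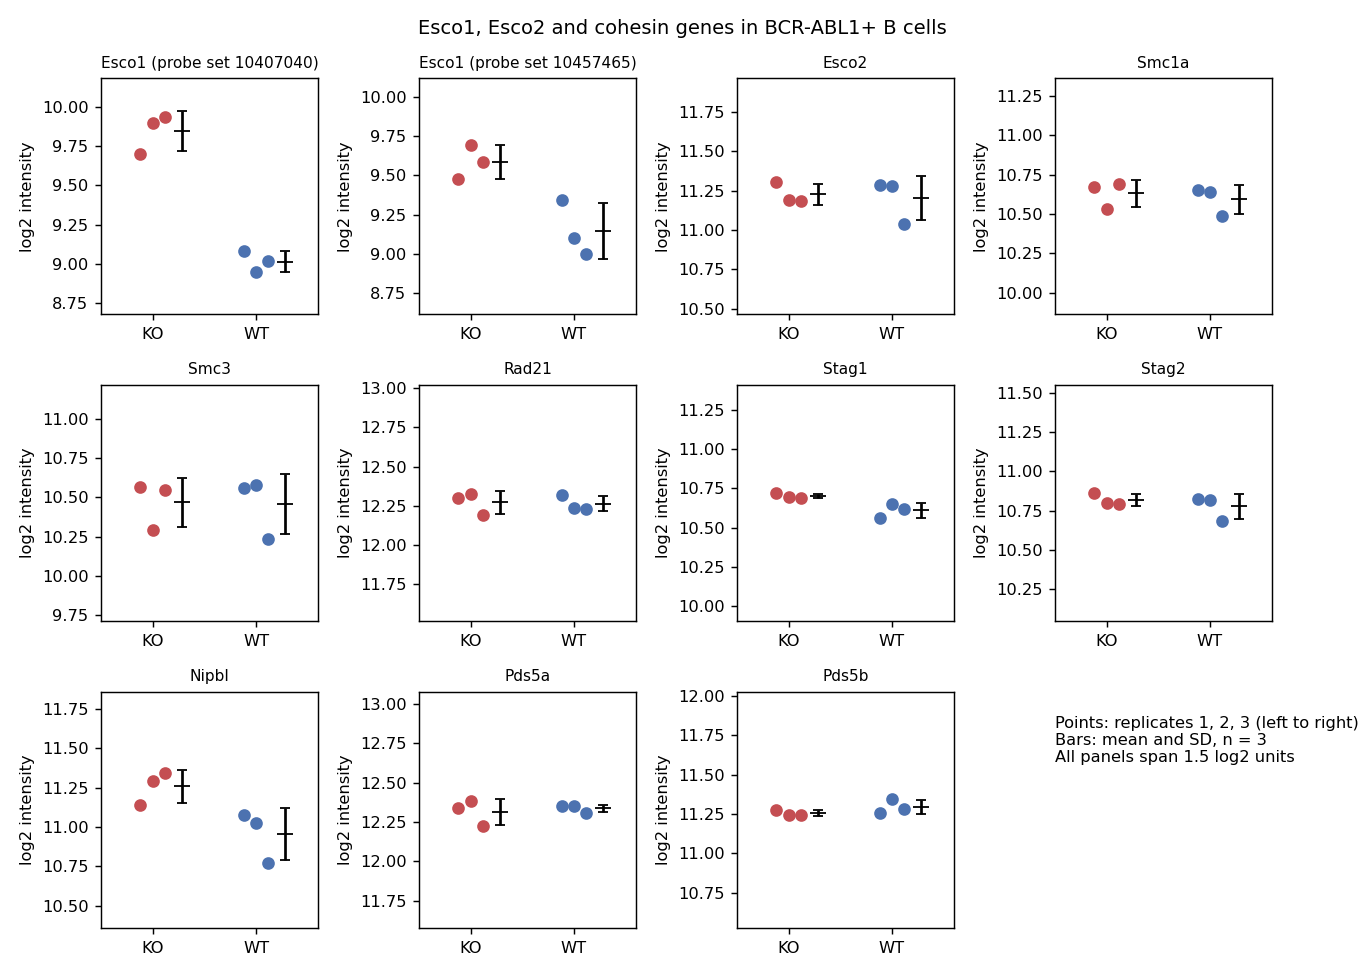
Log2 intensity (vertical axes) of both Esco1 probe sets and the 9 other genes in the KO and WT arrays. Points are replicates 1, 2 and 3 and bars are mean and SD; Esco1 lies between 9.70 and 9.94 in KO and between 8.95 and 9.08 in WT on the first probe set, while Esco2 and the ring subunits overlap.

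Esco2, the acetyltransferase of DNA replication, showed no such difference. It measured 11.31, 11.19 and 11.18 in KO replicates 1, 2 and 3, against 11.28, 11.28 and 11.04 in WT replicates 1, 2 and 3. The arrays of both genotypes overlapped, and WT replicate 3 was the lowest. The log2 difference was 0.02 (SE 0.09, limma adjusted p = 0.970), with a 95% interval of -0.19 to 0.23. Leaving out KO replicate 1 or WT replicate 3 turned the sign of this difference to -0.02 and -0.06.

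The ring subunits lay at nearly the same level in both genotypes, but 2 of them shared a pattern across arrays. Smc1a measured 10.67, 10.53 and 10.69 in KO replicates 1, 2 and 3, against 10.65, 10.64 and 10.48 in WT replicates 1, 2 and 3. Smc3, the subunit that Esco1 and Esco2 acetylate, measured 10.57, 10.29 and 10.55 in KO replicates 1, 2 and 3, against 10.56, 10.58 and 10.24 in WT replicates 1, 2 and 3. Both were low in the same arrays, KO replicate 2 and WT replicate 3, and the genotypes overlapped. Some genes outside the named list were also lowest of their genotype in these arrays, among them Smc2, Smc5, Smc6, Ncaph and Ncapg, while others were not. Smc3 lay 0.18 below its KO mean in KO replicate 2 and 0.22 below its WT mean in WT replicate 3, as log2 deviations of size that exceed the difference between genotypes. The log2 differences between genotypes were 0.04 (SE 0.08, limma adjusted p = 0.949) for Smc1a and 0.01 (SE 0.12, limma adjusted p = 0.990) for Smc3. The Smc3 interval, from -0.26 to 0.28, was the widest among the ring subunits.

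The promoters of these subunits are shown because, of the 10 members, they are the ones that dipped in the same arrays, though genes outside the list did so too. Their start regions are also among the 5 of 10 members held in RefSeq's promoter table (GRCm38.p6). Each runs from 250 bases before the start of the gene to 50 after it, 5′ to 3′ on the gene's strand, at chrX:152016178-152016477 (plus strand) and chr19:53600146-53600445 (plus strand). Capitals mark matches on either strand to CCAAT, the letters of a CCAAT box, to GGGCGG, the core of a GC box, to TTTGAA, the core of a cell cycle homology element, or to TTTNNCGC, letters that E2F sites contain.
Smc1a: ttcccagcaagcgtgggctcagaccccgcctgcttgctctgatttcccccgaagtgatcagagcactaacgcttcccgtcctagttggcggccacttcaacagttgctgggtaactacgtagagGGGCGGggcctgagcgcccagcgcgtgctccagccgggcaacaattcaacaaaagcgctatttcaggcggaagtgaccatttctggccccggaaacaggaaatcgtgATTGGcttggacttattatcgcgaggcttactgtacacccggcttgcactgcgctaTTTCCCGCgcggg
Smc3: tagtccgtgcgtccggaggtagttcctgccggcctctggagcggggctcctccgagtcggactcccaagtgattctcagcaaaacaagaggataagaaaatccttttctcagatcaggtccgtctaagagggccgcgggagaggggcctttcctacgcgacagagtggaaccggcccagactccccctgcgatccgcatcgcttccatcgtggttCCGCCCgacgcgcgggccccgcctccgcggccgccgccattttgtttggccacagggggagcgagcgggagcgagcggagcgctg
Smc1a held 1 match to CCAAT as well as 1 to GGGCGG and 1 to TTTNNCGC, and Smc3 held 1 match to GGGCGG, none of which overlapped another. Of 32851 promoters of the same length, 37.4% hold CCAAT, 35.7% GGGCGG, 17.9% TTTGAA and 5.17% TTTNNCGC. The only motif shared by both is thus also found in many other promoters, and a match is a description of letters, not a site.

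Rad21, the kleisin that closes the ring, measured 12.30, 12.33 and 12.19 in KO replicates 1, 2 and 3, against 12.32, 12.24 and 12.23 in WT replicates 1, 2 and 3. It was not low in KO replicate 2, unlike Smc1a and Smc3. Its log2 difference of 0.01 (SE 0.08, limma adjusted p = 0.985) took either sign depending on the array left out.

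Stag1 and Stag2 are the alternative outer subunits of somatic cohesin. Stag1 measured 10.72, 10.69 and 10.69 in KO replicates 1, 2 and 3, against 10.56, 10.65 and 10.62 in WT replicates 1, 2 and 3. These groups did not overlap, although the log2 difference was only 0.09 (SE 0.07, limma adjusted p = 0.779, 95% interval -0.07 to 0.25). Stag2 measured 10.86, 10.80 and 10.79 in KO replicates 1, 2 and 3, against 10.83, 10.82 and 10.68 in WT replicates 1, 2 and 3, and gave 0.04 (SE 0.08, limma adjusted p = 0.939). In WT replicate 2, the array with low Xist, the X-linked Smc1a and Stag2 lay between the other WT arrays.

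Nipbl, the loader, had the second highest difference of the 10 genes and was uneven within both genotypes. It measured 11.14, 11.29 and 11.34 in KO replicates 1, 2 and 3, against 11.08, 11.03 and 10.77 in WT replicates 1, 2 and 3. Every KO array lay above every WT array, by a margin of 0.06 at the closest pair, KO replicate 1 and WT replicate 1. The log2 difference was 0.30 (SE 0.10, 95% interval 0.06 to 0.54), short of the threshold used below (limma unadjusted p = 0.0189, adjusted p = 0.418). Without WT replicate 3 it was 0.21.

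Pds5a and Pds5b, the related holding and release factors, were the only members with a lower KO mean. Pds5a measured 12.34, 12.39 and 12.22 in KO replicates 1, 2 and 3, against 12.35, 12.35 and 12.31 in WT replicates 1, 2 and 3. Pds5b measured 11.28, 11.24 and 11.25 in KO replicates 1, 2 and 3, against 11.26, 11.35 and 11.29 in WT replicates 1, 2 and 3. The groups overlapped for both, with log2 differences of -0.02 (SE 0.08, limma adjusted p = 0.969) and -0.04 (SE 0.07, limma adjusted p = 0.931). A further quantile normalization gave 0.005 for Pds5a.

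**Figure D2:**
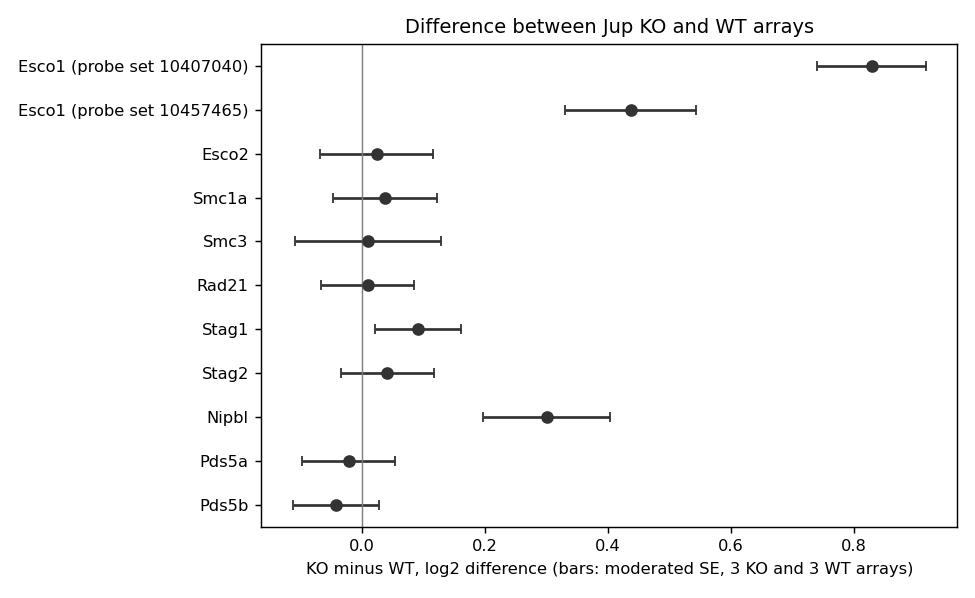
KO minus WT log2 differences (horizontal axis) of both Esco1 probe sets and the 9 other genes, with moderated standard errors over 3 KO and 3 WT arrays. Esco1 stands at 0.83 and 0.44, Nipbl at 0.30, and the remaining 8 genes between -0.04 and 0.09.

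Of the 9 genes beside Esco1, 7 had a higher and 2 a lower KO mean, and 0 passed the threshold of limma adjusted p under 0.05 over all 21789 probe sets. Nipbl was the 1 gene with an unadjusted p under 0.05. The threshold called 0.119% of all probe sets, 0.0505% as higher and 0.0688% as lower in KO. An unadjusted p under 0.05 was reached by 9.22%, of which 4.48% were higher and 4.73% lower, as shares of all probe sets. The median difference of the 9 was 0.02, against -0.02 over all probe sets. Among all 10 genes, Esco1, Nipbl and Stag1 had every KO array above every WT array, as did 5.94% of all probe sets, and 0 had every KO array below, as did 8.08%. Esco1 had been chosen on this contrast, so nothing is read from its place in these counts.

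Esco1 was then set against each of the others within the same array, as a log2 ratio. This did not in general narrow the spread within genotypes. The SD was 0.13 in KO and 0.07 in WT for Esco1 alone. For its ratio to the mean of the 9 other genes it was 0.15 and 0.11. Smaller values arose against Nipbl in KO (0.02) and against Rad21 in WT (0.04). Levels of different probe sets are not comparable as such, and only the shift of this log2 ratio between genotypes is meaningful. Esco1 minus Esco2 was -1.61, -1.29 and -1.25 in KO replicates 1, 2 and 3, against -2.20, -2.33 and -2.02 in WT replicates 1, 2 and 3. The ratio shifted by 0.80 on the log2 scale, or 1.75-fold toward Esco1 in KO, without overlap. Against the mean of the 9 other genes, the ratio was -1.54, -1.30 and -1.28 in KO replicates 1, 2 and 3, and -2.13, -2.27 and -2.06 in WT replicates 1, 2 and 3. The shift was 0.78. It was smallest against Nipbl, at 0.53, and largest against Pds5b, at 0.87, and in all 9 pairs the KO arrays lay above the WT arrays.

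With the other Esco1 probe set the same ratios shifted less. The shift was 0.41 against Esco2 and 0.39 against the mean of the 9 genes. Against Stag1 it was 0.35 and against Nipbl 0.14, and for these pairs the KO and WT arrays overlapped. These ratios carry the contrast on which Esco1 was chosen and are therefore given without a test.

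Within each genotype the 10 genes did not all deviate in the same arrays. Esco1 was lowest among the KO arrays in replicate 1, 0.14 below its KO mean, and so was Nipbl, 0.12 below. Esco2 and Smc3 were highest in that array, 0.08 and 0.10 above their KO means. In WT replicate 3, Nipbl (0.19 below its WT mean), Smc3 (0.22 below), Esco2 (0.16 below), Smc1a (0.11 below) and Stag2 (0.09 below) were all low, while Esco1 was at its WT mean on probe set 10407040 and 0.15 below it, its lowest WT value, on probe set 10457465. Without that array 2 of the 9 other genes had a higher KO mean, and without KO replicate 1 there were 4.

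**Figure D3:**
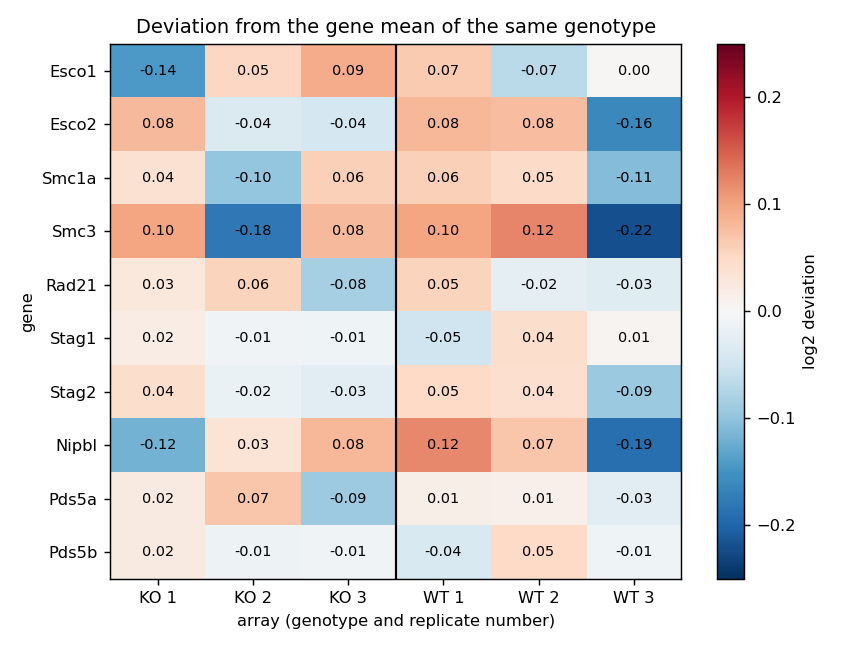
Log2 deviation of each gene (rows) from its own mean in the same genotype, for the 3 KO and 3 WT arrays (columns). Smc1a and Smc3 are low in KO replicate 2 and WT replicate 3, and Esco1 and Nipbl are low in KO replicate 1.

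Further regulators of cohesin were read from a list of 14 genes, all measured. Of these, 8 had a higher and 6 a lower KO mean, with a median log2 difference of 0.02, and 0 passed over all probe sets in limma. Hdac8, the deacetylase that removes the mark Esco1 sets on Smc3, was the 1 member whose unadjusted p was under 0.05. It measured 9.85, 10.25 and 10.05 in KO replicates 1, 2 and 3, against 9.76, 9.57 and 9.44 in WT replicates 1, 2 and 3. All KO arrays lay above all WT arrays, and the log2 difference was 0.46 (SE 0.12, limma unadjusted p = 0.00525, adjusted p = 0.286). Hdac8 is X-linked, and without WT replicate 2 its difference was 0.45.

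Other regulators are named for their roles after their values were seen. Wapl, which releases cohesin from chromatin, measured 7.03, 7.54 and 6.91 in KO replicates 1, 2 and 3, against 7.35, 6.86 and 6.44 in WT replicates 1, 2 and 3, and these groups overlapped (0.28, SE 0.24, limma adjusted p = 0.810). Cdca5, or sororin, which counters Wapl on acetylated cohesin, gave -0.04 (SE 0.08, limma adjusted p = 0.942). Mau2, the partner of Nipbl in loading, gave 0.11 (SE 0.08, limma adjusted p = 0.747). Ctcf, which halts cohesin at loop anchors, gave 0.08, and Espl1, the separase that cleaves Rad21, gave -0.02. Pttg1, the securin that holds separase inactive, was the most uneven, at 9.57, 10.40 and 10.67 in KO replicates 1, 2 and 3, against 9.68, 10.39 and 9.62 in WT replicates 1, 2 and 3 (0.32, SE 0.29). For each of these 6 genes the KO and WT arrays overlapped. On the whole list of 14, Hdac8 alone had every KO array above every WT array, as did 5.94% of all probe sets. Chtf8, a subunit of a clamp loader that acts in cohesion, alone had every KO array below, as did 8.08% (-0.14, SE 0.08, limma adjusted p = 0.657).

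The 4 cohesin genes of meiosis, Smc1b, Rec8, Rad21l and Stag3, were dim in both genotypes. Each lay below the array medians in every array, and their differences ran from -0.004 for Rec8 to 0.21 for Stag3. RMA, the summary method used here, compresses changes of dim transcripts. The related condensin and SMC5/6 complexes, which compact chromosomes and act in repair, gave 7 members with a higher and 7 with a lower KO mean of 14. The median of these was -0.001, and their differences ran from -0.07 for Smc2 to 0.12 for Nsmce1. Among them 2 had every KO array above every WT array and 1 had every KO array below. Naa10 had no probe set with exactly 1 symbol, and of the 11 measured lysine and N-terminal acetyltransferases 7 had a higher and 4 a lower KO mean (median 0.06), led by Kat6b at 0.18 and with Hat1 lowest at -0.12. In all 3 lists 0 members passed in limma over all probe sets, and 0 had an unadjusted p under 0.05.

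Genes of the cell cycle were read because Esco2 and several cohesin regulators follow it. Of 16 genes of DNA replication, 6 had a higher and 10 a lower KO mean (median -0.04), and of 15 measured genes of G2 and mitosis 5 had a higher and 10 a lower KO mean (median -0.02). No member passed in limma over all probe sets, and 1 had an unadjusted p under 0.05. That was Ccne1, which encodes cyclin E1, with 10.39, 10.21 and 10.21 in KO replicates 1, 2 and 3, against 10.55, 10.63 and 10.66 in WT replicates 1, 2 and 3. Its groups did not overlap, and it differed by -0.34 (SE 0.08, limma adjusted p = 0.230). Of the 16 genes of DNA replication 2 had every KO array below every WT array, as did 8.08% of all probe sets. Mki67, a marker of dividing cells, gave 0.07 and Aurka, a mitotic kinase, -0.18.

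The cell cycle genes were set beside the dips of Smc1a and Smc3. The mean of the G2 and mitosis genes was 11.30, 11.17 and 11.23 in KO replicates 1, 2 and 3, against 11.31, 11.33 and 11.16 in WT replicates 1, 2 and 3. Of these 15 genes 9 were lowest among KO arrays in replicate 2 and 6 in replicate 3, and 13 were lowest among WT arrays in replicate 3. Without Cenpe and Cenpf, proteins of the kinetochore, the mean was 11.54, 11.44 and 11.45 in KO replicates 1, 2 and 3. In WT replicates 1, 2 and 3 it was 11.57, 11.57 and 11.44. The genes of DNA replication had their lowest KO mean in replicate 3, at 10.85 against 10.96 in replicate 2, and 15 of the 16 were lowest there. In WT replicates 1, 2 and 3 their mean was 11.03, 11.04 and 10.97, and 11 of the 16 were lowest in replicate 3. Cenpe, a motor protein of the kinetochore, measured 9.38 in KO replicate 2 and 9.37 in WT replicate 3, and between 9.74 and 9.86 in the other arrays. It was named after its values were seen. What part the cell cycle has in these dips was not tested.

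**Figure D4:**
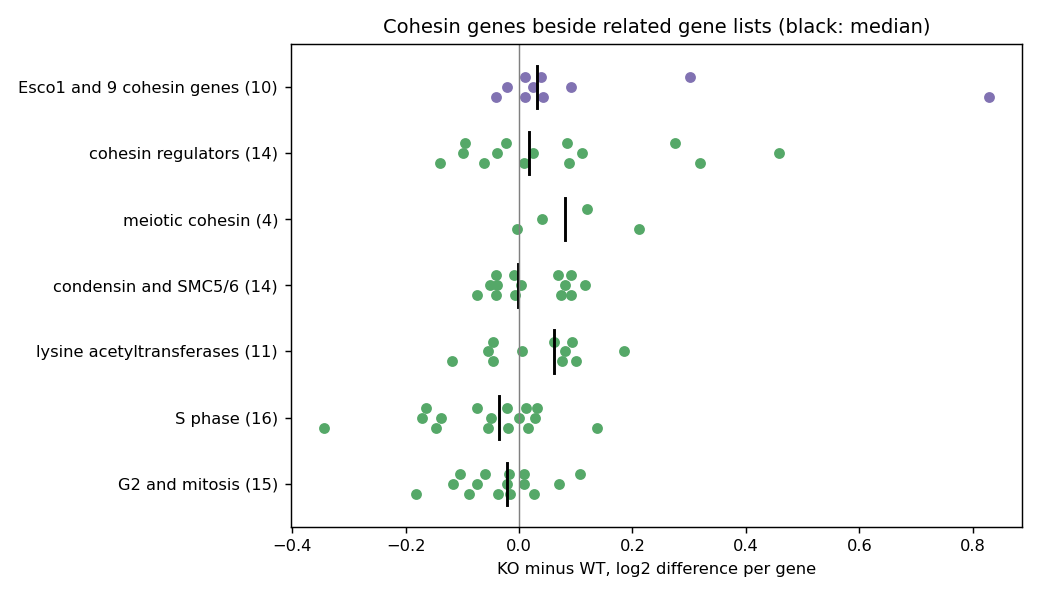
KO minus WT log2 difference (horizontal axis) of each gene in the Esco1 and cohesin set and in 6 related lists, with the median of each in black and the number of genes in brackets. Esco1, which was chosen for this difference, lies at 0.83 on probe set 10407040, and the highest gene of the 6 lists is Hdac8 at 0.46. The other Esco1 probe set, not drawn, gave 0.44, below Hdac8.

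Transcripts of other cell types moved with genotype in part, beside which the Esco1 difference stands. Of 14 myeloid markers 12 had a higher KO mean and 3 rose over all probe sets in limma, with a median of 0.66. Their summed linear intensity was 9986 to 10678 in KO arrays and 5051 to 8177 in WT arrays. Summed erythroid markers were at 786 to 842 in KO arrays and 679 to 779 in WT arrays, with Car1 the 1 of 6 that rose in limma. T and NK markers summed to 724 to 795 in KO arrays and 722 to 900 in WT arrays, with 0 of 8 past the threshold and 3 at an unadjusted limma p under 0.05, the cytotoxic granule gene Nkg7 (0.49), Cd8a (-0.22) and Klrb1c, which encodes a receptor of NK cells (-0.79). Stromal and endothelial markers summed to 2674 to 3080 in KO arrays and 2623 to 2806 in WT arrays, with Sparc the 1 of 8 that fell. B precursor markers summed to 70408 to 74761 in KO arrays and 69920 to 72112 in WT arrays, with 0 of 11 past the threshold. That sum is dominated by the brightest members, and 3 of the 11 had an unadjusted limma p under 0.05, the recombinase subunits Rag1 (0.50) and Rag2 (0.42) and Enpep, which encodes the sort marker BP-1 (-0.23). Over all probe sets limma called 0.0505% as higher and 0.0688% as lower in KO, and 9.22% had an unadjusted p under 0.05. The KO mean was higher for 9641 probe sets and lower for 12148. In sorted bulk samples, fewer cells of a type and less RNA per cell cannot be told apart. The part of other cells in the Esco1 difference was not tested.

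The annotated protein-coding neighbours of Esco1 on chromosome 18, 5 on each side, were read from the gene order of GRCm38.p6. Rbbp8 had no probe set with exactly 1 symbol and was passed over. Of the 10 neighbours 6 had a higher and 4 a lower KO mean, against 9641 higher and 12148 lower over all probe sets. An unadjusted p under 0.05 was reached by 3 of them, against 9.22% of all probe sets, and 0 passed in limma over all probe sets. These 3, Colec12, Greb1l and Gata6, were all dim, at percentiles 22.2, 24.9 and 37.0 of mean brightness. Abhd3 and Cables1 were dim as well, without such a p, and the brighter neighbours did not reach it. On the near side before Esco1, Greb1l gave 0.24 (SE 0.09, limma adjusted p = 0.472), and next after Esco1 Snrpd1, a core spliceosome protein, gave -0.21 (SE 0.11, limma adjusted p = 0.617). Gata6, a zinc finger transcription factor, had the highest difference of the neighbours. It measured 6.87, 7.07 and 7.55 in KO replicates 1, 2 and 3, against 6.36, 6.37 and 6.74 in WT replicates 1, 2 and 3, which differed by 0.67 (SE 0.18, limma adjusted p = 0.286). Colec12, a scavenger receptor, gave -0.34 (SE 0.11, limma adjusted p = 0.379). Mib1, Rock1, Cables1 and Thoc1 lay between 0.08 and 0.18 and Abhd3 and Usp14 at -0.02 and -0.17.

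The genes whose profile was most like that of Esco1 were found by the root mean square difference over the 6 arrays. Each gene's own mean was subtracted first, and 17447 genes were compared. Esco1 itself, genes with a predicted or provisional symbol and receptors of smell were left out of the 19938 genes. Pde9a, a cyclic GMP phosphodiesterase, came first at 0.079, followed by Cyp2j6, a cytochrome P450, at 0.097 and Zc3h12b at 0.103. Slc14a1, a urea transporter, was at 0.126 and Chst15, a sulfotransferase, at 0.128. Pde9a measured 9.38, 9.61 and 9.62 in KO replicates 1, 2 and 3, against 8.64, 8.47 and 8.75 in WT replicates 1, 2 and 3, with its lowest KO value in replicate 1, as for Esco1. The other Esco1 probe set differed from the first by 0.217 and would have come 95th. Among the cohesin genes Nipbl was nearest at 0.282, in place 396, and Smc3 farthest at 0.448, in place 9295. Since Esco1 was chosen for its difference between genotypes, these likenesses describe that difference and carry no test.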

How the data were processed

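RNA of 3 KO and 3 WT samples was measured on 1-colour Affymetrix whole-transcript arrays. The authors deposited log2 values (the scale is read from the range of the values), made, per the submitters' processing notes, by RMA with version 1.1 of Affymetrix Expression Console. RMA corrects background, normalizes between arrays and summarises probe sets. Its options and the genome build are not given in the sources used here. Symbols came from the platform annotation: of 35556 rows, 23410 are listed, 1621 with several symbols, and the 21789 with exactly 1 were tested. RefSeq of GRCm38.p6 gave chromosomes, gene order and promoters. Its promoter table was searched by symbol.

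KO was compared with WT by limma 3.58.1 in R 4.3.3 (lmFit, eBayes, prior degrees of freedom 4.33), with no covariate, no filter on dim probe sets and Benjamini-Hochberg adjustment over 21789 probe sets at 0.05. All differences are KO minus WT. The fit was tested on simulated data. Members, lists, neighbours and the likeness measure were chosen with earlier results of these data known, and lists are described by counts and medians with no set test. From each list the 2 genes highest and the 2 lowest by moderated t could be named, of the cohesin regulators those at an unadjusted p under 0.05, and further ones as stated. Alternatives were a filter at the 40th percentile of brightness, all rows, 1 probe set per gene, averaging the probe sets of a gene, array weights, a trended and robust prior, quantile normalization, median centring, the replicate number as a block and each array left out. The other Esco1 probe set was added after the data were seen. No sample was dropped or imputed in the main comparison.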

Additional observations from a re-analysis of the deposited data

How the results depend on the processing

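The Esco1 difference ran from 0.78 to 0.90 with an array left out and was 0.63 with its probe sets averaged. Its sign could not turn with an array left out, since every KO array lay above every WT array. The brightness filter, all rows, 1 probe set per gene, the other prior and the replicate block could not change this estimate. The other Esco1 probe set, an alternative chosen after seeing the data, gave 0.437, and 0.387 for Esco1 minus the mean of the 9 genes and 0.413 for Esco1 minus Esco2. With averaged probe sets these last values were 0.583 and 0.609, and with an array left out 0.720 to 0.863 and 0.732 to 0.916. Of the 9 other genes 0 passed under any of the 15 alternatives, and Nipbl ranged from 0.21 to 0.36 (limma adjusted p from 0.171 to 0.987). Hdac8 ranged from 0.36 to 0.56 (limma adjusted p from 0.0833 to 0.805). Signs near 0 turned: with an array left out Esco2 ranged from -0.056 to 0.066, Smc1a from -0.016 to 0.087, Smc3 from -0.100 to 0.099, Rad21 from -0.018 to 0.051, Stag2 from -0.0043 to 0.067 and Pds5a from -0.056 to 0.025. Array weights gave -0.021 for Smc3, and quantile normalization 0.0053 for Pds5a. The condensin and SMC5/6 median ranged from -0.0082 to 0.019 with an array left out.

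Over all probe sets, against 11 higher and 15 lower in KO, the limma counts were 17 and 23 with a trended and robust prior, 93 and 57 with array weights, 7 and 10 with quantile normalization, 17 and 19 with median centring, and 10 and 59 over all rows. With an array left out they ranged from 1 to 41 higher and from 3 to 41 lower; the cause was not tested. Deviations of same-numbered KO and WT arrays correlated at 0.104, -0.004 and 0.275, and those of differently numbered arrays at -0.251 to 0.134. These few values do not settle whether the replicate numbers pair the samples. With the replicate block the counts were 8 and 11 and 0 of the 9 genes passed. All 4 meiotic cohesin genes fell out under the filter on dim probe sets, which gave no value for them.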
